A study of Homo sapiens with 6 samples.

Results

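The genes described here are 10 components of transforming growth factor beta (TGF-beta) signalling in U87 cells, an established human glioma cell line. They are the ligands TGFB1, TGFB2 and TGFB3, the receptors TGFBR1, TGFBR2 and TGFBR3, and the feedback inhibitors PMEPA1, SMAD7, SKIL and BAMBI. They were chosen by symbol, with earlier results of these data known, and each symbol matched 1 of the 57905 Ensembl identifiers counted. Total RNA was sequenced in 6 libraries. Of these, 3 came from cells given 100 pmol of an siRNA with the genotype and treatment labels siRBM47, and 3 from control cells with the genotype WT and the treatment label "no". RBM47 binds RNA and is known to act on splicing, mRNA stability and editing; the comparison asked how transcript levels change on its depletion. All 6 samples carry the same lipofectamine protocol, and no label says whether control cells received a non-targeting siRNA, so an effect of transfection and an effect of the siRNA cannot be told apart.

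TGF-beta ligands are secreted in a latent form, held in the matrix by latent TGF-beta binding proteins, and bind a complex of type II and type I receptor kinases once released. The type I receptor phosphorylates SMAD2 and SMAD3, which enter the nucleus with SMAD4 and act on target genes. Several of these targets encode inhibitors of the pathway, which close a negative feedback loop. In glioma, TGF-beta signalling is known for its links to invasion, immune suppression and mesenchymal gene expression.

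A fall of RBM47, the gene the siRNA is labelled for, was not detected; its log2 fold change was -0.11 (95% interval -1.23 to 1.02, SE 0.50, edgeR adjusted p = 0.942). RBM47 was at 3.54, 2.74 and 2.23 CPM (read counts normalised for library size by TMM) in the siRBM47 libraries, against 1.62, 1.73 and 5.75 CPM in control replicates 1, 2 and 3. Directions below are therefore those between libraries so labelled. Total counts ranged from 17580000 to 17880000 in siRBM47 and from 15580000 to 18130000 in control libraries, rounded. Control replicate 3 stood apart from the other control libraries, with a correlation of log2 CPM across genes of 0.941 and 0.950 with them, against 0.988 between these. The mesenchymal gene VIM was abundant (3954 ± 603 CPM in siRBM47, 3873 ± 1054 CPM in control, SD, n = 3 each), while the astrocyte gene GFAP was scarce (0.730 ± 0.122 CPM in siRBM47, 1.05 ± 0.623 CPM in control). Of the other cell type markers, the leukocyte genes AIF1, ITGAM and TYROBP had 0 counts in every library. Summed marker CPM of leukocytes was 23.5 to 31.6 in siRBM47 and 11.9 to 25.3 in control libraries, most of it CSF1R. The endothelial sum was 6.87 to 8.62 and 11.2 to 15.1, the epithelial sum 3.09 to 3.59 and 1.90 to 6.77, and the neuronal sum 21.8 to 34.3 and 16.04 to 20.7 CPM in siRBM47 and control libraries. Most of the endothelial sum was KDR and most of the neuronal sum SNAP25. KDR had a log2 fold change of -1.05 (edgeR adjusted p = 0.132), while VWF, another endothelial gene, had one of 0.60 (edgeR adjusted p = 0.754). Without control replicate 3 the value was -1.28 for KDR (edgeR adjusted p = 0.00134) and 2.68 for VWF (edgeR adjusted p = 0.00591). VWF had 3, 6 and 56 counts in control replicates 1, 2 and 3. The part of such cells in the results was not tested, and results are given with and without control replicate 3 where it moves them. In bulk RNA fewer cells of a type and less RNA per cell cannot be told apart.

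Promoter sequence is shown for PMEPA1 and TGFBR2, the members with the largest differences between the groups, to show where the SMAD-binding letters CAGAC fall. The sequences are the 250 bases before a RefSeq transcript start on GRCh38.p14, written 5′ to 3′ on the strand of the gene, with CAGAC or its reverse complement GTCTG in capitals.
PMEPA1, chr20:57710578-57710827, minus strand: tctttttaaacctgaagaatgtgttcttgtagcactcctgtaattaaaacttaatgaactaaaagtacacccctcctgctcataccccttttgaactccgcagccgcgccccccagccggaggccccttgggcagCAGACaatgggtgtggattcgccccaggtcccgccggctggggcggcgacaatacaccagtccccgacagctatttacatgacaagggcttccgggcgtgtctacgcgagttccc
TGFBR2, chr3:30606106-30606355, plus strand: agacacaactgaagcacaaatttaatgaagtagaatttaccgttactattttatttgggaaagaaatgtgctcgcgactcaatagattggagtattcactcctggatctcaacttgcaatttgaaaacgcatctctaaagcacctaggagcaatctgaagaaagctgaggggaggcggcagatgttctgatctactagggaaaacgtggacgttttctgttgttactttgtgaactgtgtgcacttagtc
The windows shown were chosen because they do not reach into the exon at the outer end of the annotated gene. Of the 3 such PMEPA1 windows, the one shown matches 1 annotated transcript and the others 0. The windows not shown that match the most annotated transcripts, 2 for each gene, do reach into that exon and hold 0 matches of the letters. The PMEPA1 window shown lies inside the annotated gene, which reaches to base 57711536. The TGFBR2 window shown matches 0 annotated transcripts and lies before the annotated start at base 30606502. The PMEPA1 window shown holds 1 match, which begins 115 bases before the start, and the TGFBR2 window holds 0. All 10 members matched the table of promoters, with 24 windows in all. The letters were in 2 of 4 windows of PMEPA1, in 0 of 2 windows of TGFBR2 and in 12 of the 24 windows, while 38.0% of the 35116 windows of all genes held them. Windows of a gene can overlap and hold the same site, and 8 of the 24 were those of TGFBR1. By gene, 7 of the 10 members had the letters in a window, against 42.8% of all genes. Such a match is a description of the sequence and not evidence of SMAD binding.

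Among the 10 members, PMEPA1 rose in the siRBM47 libraries, and the other 9 did not pass the threshold of an adjusted p of 0.05 over the 14578 genes tested. All 10 members were abundant enough to be tested. The count of 1 higher member stands against 0.0823% of all genes called higher, and the count of 0 lower members against 0.137% called lower (edgeR quasi-likelihood test). No member was lower at an unadjusted p under 0.05 either, or by DESeq2. At an unadjusted p under 0.05, 4 members were higher, PMEPA1, TGFBR2, TGFBR1 and SKIL, while 7.15% of all genes were higher and 8.94% lower at that level. In these same 4 members every siRBM47 library lay above every control library, against 11.6% of all genes. This restates the same differences and is not independent of the p-values. The median log2 fold change was 0.43 over the 10 members and -0.01 over all genes tested, with 6 members positive and 4 negative. The members and the lists below were chosen with earlier results of these data known. Their counts and medians beside those of all genes are thus descriptions and not evidence about a set.

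**Figure D1:**
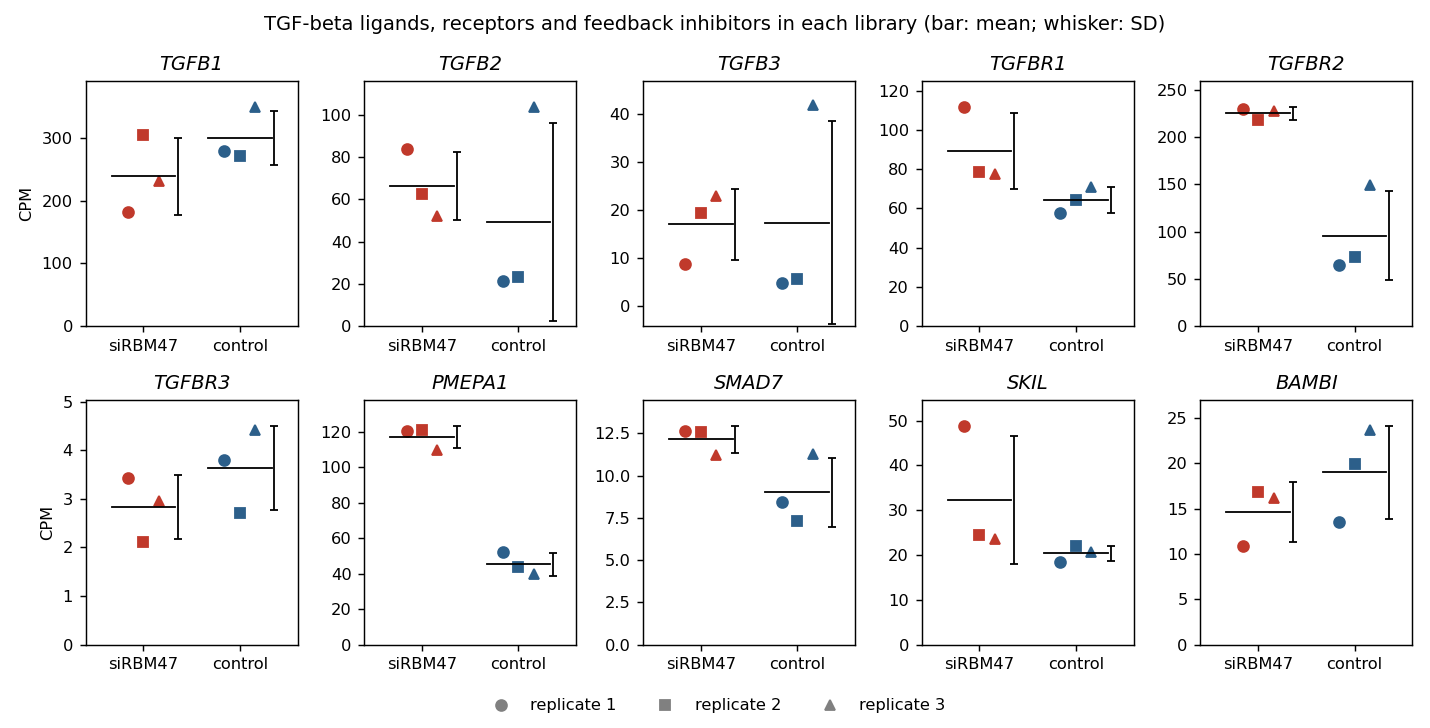
Level of each member in CPM (vertical axes, a scale of its own for each gene), with siRBM47 libraries in red on the left and control libraries in blue on the right of each panel. Symbols mark replicates, bars the mean and whiskers the SD of 3 libraries. The siRBM47 libraries lie above all control libraries for TGFBR1, TGFBR2, PMEPA1 and SKIL, and control replicate 3 lies far above the other controls for TGFB2 and TGFB3.

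Of the ligands, TGFB1 was by far the most abundant per length, and none differed between the groups beyond the spread of the libraries. TGFB1 (ENSG00000105329, GRCh38 chromosome 19, 41301587 to 41353911, minus strand), the ligand most widely expressed in tissues, was at 182, 304 and 231 CPM in siRBM47 replicates 1, 2 and 3, against 279.9, 271 and 349 CPM in control replicates 1, 2 and 3. The groups overlapped, since siRBM47 replicate 2 exceeded 2 of the controls. The log2 fold change was -0.33 (95% interval -0.83 to 0.17, SE 0.22, edgeR adjusted p = 0.509). HNRNPUL1 overlaps 6.64% of the TGFB1 exon length on the opposite strand, and the kit does not mark strand.

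TGFB2 (ENSG00000092969, chromosome 1, 218346235 to 218444619, plus strand) is a ligand first described as a T cell suppressor from glioblastoma and needs TGFBR3 for efficient binding to its receptors. It was at 84.1, 62.8 and 52.3 CPM in siRBM47 libraries, against 21.4, 23.3 and 104 CPM in control libraries. All siRBM47 libraries lay above control replicates 1 and 2 and below control replicate 3, which was 4.64 times the mean of the other controls. With all libraries the log2 fold change was 0.42 (95% interval -0.78 to 1.62, SE 0.54, edgeR adjusted p = 0.740). Without control replicate 3 it was 1.57 (95% interval 1.11 to 2.03, SE 0.21, edgeR adjusted p = 0.000292). TGFB2-OT1, transcribed from the same strand, covers 26.6% of its exon length and is not among the identifiers counted, which makes the TGFB2 counts uncertain.

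TGFB3 (ENSG00000119699, chromosome 14, 75958099 to 75982991, minus strand), the ligand known for palate fusion in development, was at 8.73, 19.4 and 22.8 CPM in siRBM47 libraries, against 4.74, 5.58 and 41.8 CPM in control libraries. The controls had the same places as for TGFB2, with control replicate 3 highest, at 8.10 times the mean of the other controls, and control replicates 1 and 2 lowest. By the fit, the log2 fold change was -0.04 (95% interval -1.69 to 1.61, SE 0.74, edgeR adjusted p = 0.985), and the value without control replicate 3 had the other sign, at 1.71 (95% interval 0.97 to 2.46, SE 0.35, edgeR adjusted p = 0.00378). Its antisense partner TGFB3-AS1, which overlaps 3.32% of its exon length, had 0 counts in every library.

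The make-up of the ligand transcripts was compared within each library on the deposited FPKM, which are per length. TGFB2 made up 21.9%, 11.1% and 11.8% of the summed ligand FPKM in siRBM47 replicates 1, 2 and 3, against 4.54%, 5.06% and 14.8% in control replicates 1, 2 and 3. TGFB1 made up 75.7%, 85.4% and 82.8% in siRBM47 libraries, against 94.4%, 93.7% and 79.0% in control libraries. In both shares control replicate 3 fell among the siRBM47 libraries and the other controls lay outside them. The summed ligand FPKM itself overlapped between the groups, at 74.3, 108 and 86.0 in siRBM47 libraries, against 90.8, 88.7 and 134 in control libraries.

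**Figure D2:**
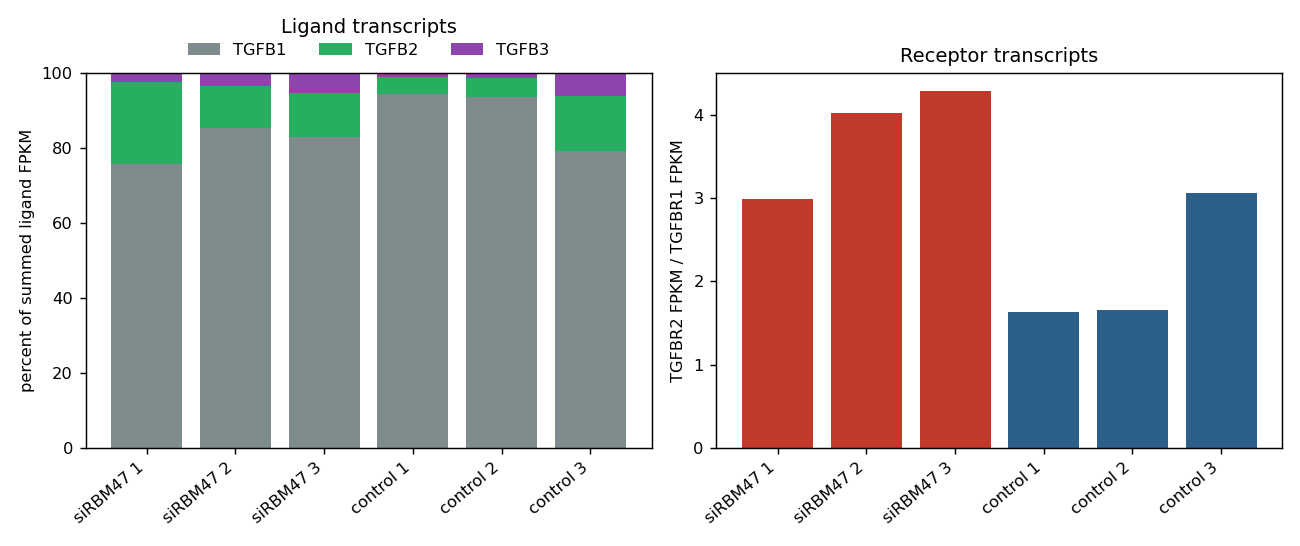
Left, the percent of the summed FPKM of the 3 ligands that each ligand makes up, in 1 bar per library. Right, the ratio of TGFBR2 FPKM to TGFBR1 FPKM per library, siRBM47 in red and control in blue. Control replicates 1 and 2 have the smallest TGFB2 shares (4.54% and 5.06%) and receptor ratios (1.64 and 1.65). Control replicate 3 lies among the siRBM47 libraries in its TGFB1 and TGFB2 shares, while its TGFB3 share (6.23%) is above all of theirs.

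Of the receptors, TGFBR2 and TGFBR1 were higher in every siRBM47 library than in any control library without passing the threshold, and the co-receptor TGFBR3 was scarce. TGFBR2 (ENSG00000163513, chromosome 3, 30606502 to 30694142, plus strand), the type II receptor kinase that binds ligand first, was at 229.6, 218 and 228 CPM in siRBM47 replicates 1, 2 and 3, against 65.1, 73.0 and 149.5 CPM in control replicates 1, 2 and 3. The siRBM47 libraries lay close together, with a coefficient of variation of 2.89%, against 48.7% in control. Control replicate 3 lay between the other controls and the siRBM47 libraries. With all 6 libraries this gave a log2 fold change of 1.23 (95% interval 0.56 to 1.90, SE 0.30, edgeR adjusted p = 0.110). It passed by DESeq2 (log2 fold change 1.24, adjusted p = 0.00562), where 1.79% of all genes were called higher. Without control replicate 3 it was 1.71 (SE 0.15, adjusted p = 1.03e-05, edgeR).

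TGFBR1 (ENSG00000106799, chromosome 9, 99104038 to 99154192, plus strand), the type I receptor kinase that phosphorylates the SMAD proteins, was at 112, 78.6 and 77.3 CPM in siRBM47 libraries, against 57.8, 64.2 and 71.1 CPM in control libraries. The gap between the groups was small, from 71.1 CPM in the highest control to 77.3 CPM in the lowest siRBM47 library. In log2 terms the difference was 0.47 (95% interval 0.01 to 0.93, SE 0.21, edgeR adjusted p = 0.303). The ratio of TGFBR2 to TGFBR1 FPKM was 2.99, 4.03 and 4.29 in siRBM47 libraries, against 1.64, 1.65 and 3.06 in control libraries. The lowest siRBM47 ratio lay just under that of control replicate 3, so the groups overlapped in this ratio.

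TGFBR3 (ENSG00000069702, chromosome 1, 91680343 to 91906335, minus strand), also called betaglycan, is a membrane proteoglycan that presents ligand to the receptor kinases. It was at 3.42, 2.11 and 2.96 CPM in siRBM47 libraries, from 62, 37 and 53 counts, against 3.79, 2.70 and 4.42 CPM in control libraries, from 56, 47 and 83 counts. The groups overlapped, with a log2 fold change of -0.36 (95% interval -1.11 to 0.39, SE 0.34, edgeR adjusted p = 0.638). The interval takes in changes of either sign.

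PMEPA1 was the feedback inhibitor that rose. The gene (ENSG00000124225, chromosome 20, 57648392 to 57711536, minus strand) encodes a membrane protein that binds SMAD2 and SMAD3, keeps them from the receptor, and is itself induced by TGF-beta. It was at 120.3, 121 and 109.7 CPM in siRBM47 replicates 1, 2 and 3, against 52.2, 43.7 and 39.6 CPM in control replicates 1, 2 and 3. The groups were far apart, and control replicate 3 was the lowest library of all, unlike its place for TGFB2, TGFB3 and TGFBR2. Its log2 fold change was 1.37 (95% interval 0.96 to 1.79, SE 0.18, edgeR adjusted p = 0.0267), a 2.59-fold higher level, and it was 1.29 (SE 0.16, adjusted p = 0.000168, edgeR) without control replicate 3. Without any 1 siRBM47 library, or without control replicate 2, the log2 fold change stayed between 1.35 and 1.42 while the adjusted p was 0.149 to 0.186 (edgeR). In the 3 fits without an siRBM47 library 0 of all genes passed by edgeR. NKILA overlaps 6.10% of the PMEPA1 exon length on the opposite strand. It is not among the identifiers counted, so reads from NKILA in that stretch could not be told from those of PMEPA1.

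The other inhibitors had smaller differences. SMAD7 (ENSG00000101665, chromosome 18, 48919853 to 48952052, minus strand), the inhibitory SMAD that occupies the type I receptor and recruits ubiquitin ligases to it, was at 12.6, 12.6 and 11.2 CPM in siRBM47 libraries, against 8.46, 7.31 and 11.3 CPM in control libraries. Control replicate 3 lay just above siRBM47 replicate 3, so the groups overlapped in CPM. The fitted log2 difference was 0.43 (95% interval -0.11 to 0.96, SE 0.24, edgeR adjusted p = 0.418). The ratio of PMEPA1 to SMAD7 FPKM was 6.25, 6.32 and 6.42 in siRBM47 libraries, against 4.05, 3.93 and 2.31 in control libraries, and the groups did not overlap. PMEPA1 alone did not overlap either, so this is not a separate result.

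SKIL (ENSG00000136603, chromosome 3, 170357678 to 170396835, plus strand) encodes SnoN, a nuclear co-repressor of SMAD proteins. It was at 48.8, 24.3 and 23.6 CPM in siRBM47 libraries, against 18.5, 21.9 and 20.6 CPM in control libraries. The siRBM47 libraries all lay above the controls, but replicate 1 stood at 2.04 times the mean of the other siRBM47 libraries, which were close to the controls. This corresponds to a log2 fold change of 0.67 (95% interval 0.01 to 1.32, SE 0.29, edgeR adjusted p = 0.302), and without siRBM47 replicate 1 it was 0.24 (adjusted p = 0.636, edgeR).

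BAMBI (ENSG00000095739, chromosome 10, 28677342 to 28682939, plus strand), a pseudoreceptor that resembles a type I receptor but has no kinase domain, was at 10.8, 16.9 and 16.1 CPM in siRBM47 libraries, against 13.5, 19.9 and 23.6 CPM in control libraries. The groups overlapped, and the log2 fold change was -0.38 (95% interval -0.99 to 0.23, SE 0.27, edgeR adjusted p = 0.530).

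**Figure D3:**
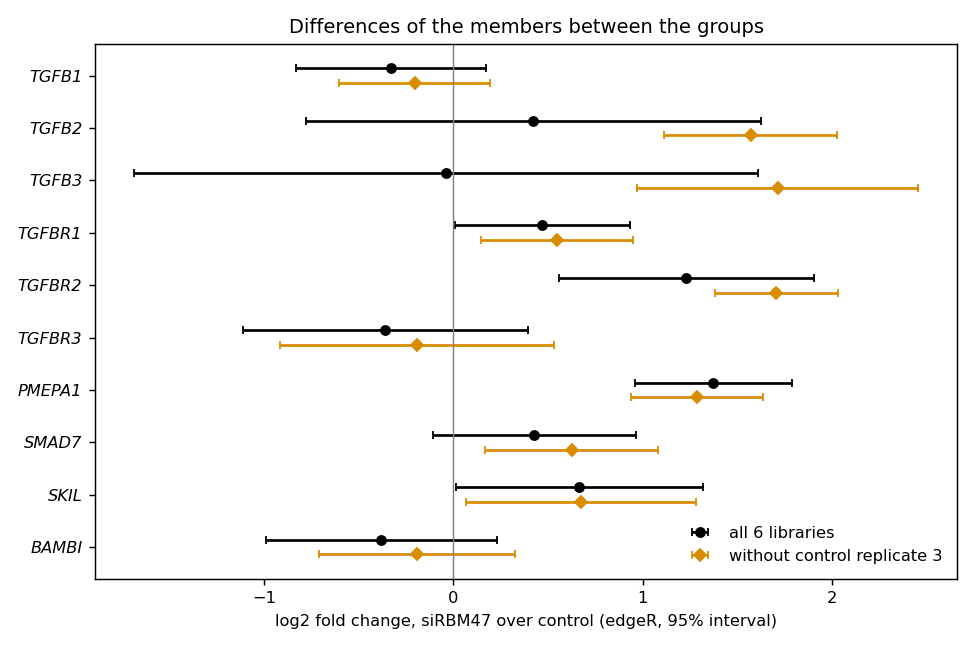
Log2 fold change of each member, siRBM47 over control (horizontal axis), by edgeR with its 95% interval, for all 6 libraries (black) and without control replicate 3 (orange). The PMEPA1 values nearly coincide at 1.37 and 1.29, while TGFB2 moves to 1.57 without that library against 0.42 with it, and TGFB3 to 1.71 against -0.04.

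Control replicate 3 divided the members. It was more than 2-fold above the mean of control replicates 1 and 2 on the log2 CPM scale for 3 of the 10 members, TGFB2, TGFB3 and TGFBR2, and for 9.95% of all genes tested. Without it, 4 members were called higher, these 3 and PMEPA1, and 0 lower, in a fit that called 10.1% of all genes higher and 11.3% lower (edgeR). The 2 controls left in that fit were the most alike pair within a group. For the members that did not pass without it, the log2 fold change in that fit was 0.55 for TGFBR1 (adjusted p = 0.0508, edgeR), 0.62 for SMAD7 (0.0511), 0.67 for SKIL (0.104), -0.19 for BAMBI (0.601), -0.20 for TGFB1 (0.461) and -0.19 for TGFBR3 (0.722). The siRBM47 libraries also varied among themselves. Replicate 1 had 1.43 times the mean of the other siRBM47 libraries for TGFBR1, 0.68 times for TGFB1, 0.66 times for BAMBI and 0.41 times for TGFB3.

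Levels could be ordered between members on the FPKM scale. In siRBM47 libraries TGFB1 was highest at 73.3 ± 18.3 FPKM (SD, n = 3), followed by TGFBR2 at 47.6 ± 1.76 and PMEPA1 at 20.7 ± 1.04, each apart from the next in every library. TGFBR1 at 13.0 ± 2.88 and TGFB2 at 12.8 ± 3.16 FPKM overlapped in siRBM47, as did neighbours in the run of BAMBI (6.27 ± 1.39), SKIL (4.13 ± 1.85), TGFB3 (3.43 ± 1.49) and SMAD7 (3.27 ± 0.205). TGFBR3 was lowest at 0.326 ± 0.0786 FPKM and apart from SMAD7. In control libraries TGFB1 was again highest at 91.6 ± 12.5 FPKM and TGFBR3 lowest at 0.415 ± 0.0973. Between them the control order ran TGFBR2 (20.1 ± 9.67), TGFB2 (9.46 ± 8.94), TGFBR1 (9.30 ± 0.916), BAMBI (8.11 ± 2.16), PMEPA1 (7.95 ± 1.16), TGFB3 (3.48 ± 4.22), SKIL (2.58 ± 0.220) and SMAD7 (2.41 ± 0.534), and every pair of neighbours in that run overlapped. PMEPA1 thus had rank 3 among the members in siRBM47 and rank 6 in control libraries.

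**Figure D4:**
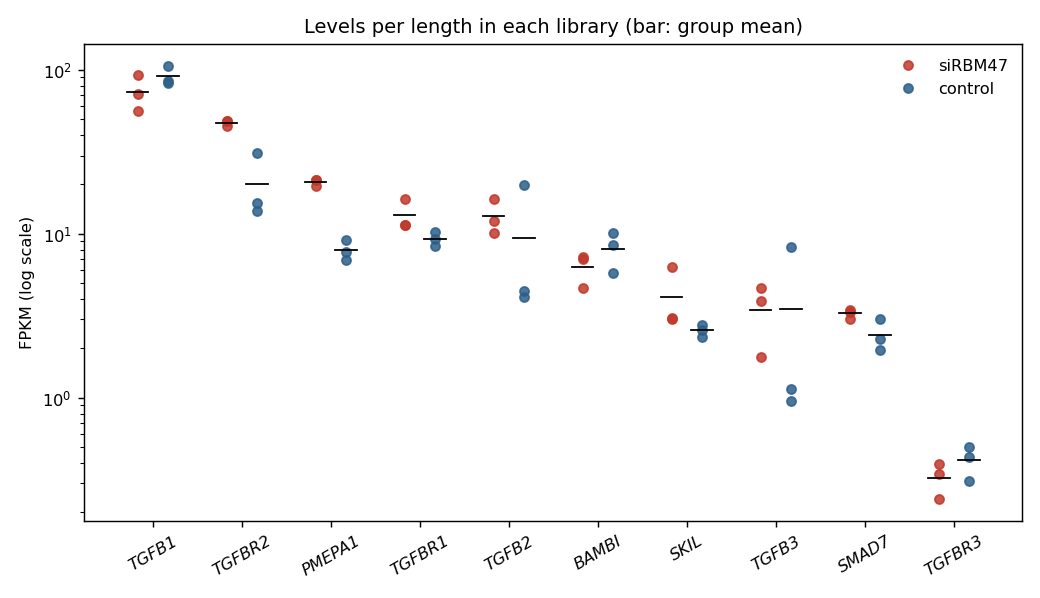
Deposited FPKM of each member (vertical log axis) in each siRBM47 (red, left) and control (blue, right) library, with bars at the group mean and members ordered by their siRBM47 mean. TGFB1 is highest and TGFBR3 lowest in both groups, and the control libraries of TGFB2, TGFB3 and TGFBR2 spread widely.

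Profiles over the 6 libraries were compared by the root mean square difference of log2 CPM, each gene centred on its own mean. Among the members, TGFBR1 and SKIL (0.19), TGFBR1 and SMAD7 (0.20), and TGFB1 and BAMBI (0.21) were most alike, and TGFB3 and PMEPA1 (1.25) least alike. Among 9706 tested genes with a symbol and a mean log2 CPM of at least 3, the profiles most like that of PMEPA1 were CTHRC1 (0.21), a secreted matrix-associated protein, FAIM (0.21), an inhibitor of Fas-induced apoptosis, and RBM4B (0.22), an RNA-binding protein. CTHRC1 was at 12.3, 10.2 and 12.6 CPM in siRBM47 libraries, against 4.47, 3.57 and 4.63 CPM in control libraries. Most like TGFBR2 were the growth factor FGF1 (0.11), the neuronal growth protein GAP43 (0.14) and TMEM255A (0.16). FGF1 was at 26.3, 29.3 and 28.0 CPM in siRBM47 libraries, against 7.38, 7.71 and 18.9 CPM in control libraries. Its intermediate level in control replicate 3 follows from choosing it for its likeness to TGFBR2. These likenesses describe 6 libraries and say nothing of shared function.

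Of 32 other components of the pathway, 31 were tested and 0 passed by edgeR with all libraries, where 0.22% of all genes passed. At an unadjusted p under 0.05, 2 were higher and 3 lower, 5 of 31 in all against 16.1% of all genes. Libraries of the groups did not overlap for 10 of the 31, with 4 above and 6 below in siRBM47, against 22.6% of all genes in either direction and 11% with all siRBM47 libraries below. Their median log2 fold change was 0.07. The untested component was NRROS, at 1 to 11 counts per library. DESeq2 called LTBP4 and TGIF1 lower, where 2.63% of all genes were called lower, and limma-voom LTBP4 alone.

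The 4 other components with the smallest p were LTBP4, TGIF1, SMURF2 and SMAD3. LTBP4, a latent TGF-beta binding protein of the matrix, was at 28.9, 48.1 and 30.3 CPM in siRBM47 libraries, against 107, 93.6 and 88.4 CPM in control libraries (log2 fold change -1.43, SE 0.23, adjusted p = 0.0522, edgeR). TGIF1, a nuclear co-repressor of SMAD2 and SMAD3, was at 100.6, 92.6 and 75.9 CPM, against 197, 173 and 196 CPM in control libraries (-1.07, SE 0.18, adjusted p = 0.0587, edgeR). Both had all siRBM47 libraries far below the controls, with control replicate 3 close to the other controls. SMURF2, a ubiquitin ligase that works with SMAD7 on the receptor, had a log2 fold change of 0.54 (SE 0.19, adjusted p = 0.209, edgeR). SMAD3, a receptor-activated SMAD, had one of -0.49 (SE 0.17, adjusted p = 0.214, edgeR). Without control replicate 3, 8 of the 31 passed by edgeR, LTBP4, TGIF1 and SMAD3 lower and SMURF2, ITGAV, ITGB5, ITGB8 and THBS1 higher. This share of 25.8% is near that of all genes called in that fit, 21.4%. The last 4 are known activators of latent TGF-beta, and for each of them control replicate 3 was more than 2-fold above the other controls. The other listed integrins, ITGB3 at -0.24 and ITGB6 at 1.92, were not called in that fit. Control replicate 3 was more than 2-fold above the other controls for 8 of the 31 components, against 9.95% of all genes.

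Of 30 known target genes of TGF-beta signalling, 25 were tested, and TAGLN (transgelin), which binds actin in smooth muscle, rose. It was at 93.8, 123 and 109.7 CPM in siRBM47 libraries, against 29.1, 29.5 and 46.6 CPM in control libraries (log2 fold change 1.63, SE 0.24, adjusted p = 0.0370, edgeR). The other 24 did not pass, and COL4A1, POSTN, SNAI1, CDKN2B and PDGFB were not tested. By edgeR, 1 of the 25 was thus called, against 0.22% of all genes. At an unadjusted p under 0.05, 8 targets were higher and 4 lower, against 7.15% and 8.94% of all genes, and the median log2 fold change of the 25 was 0.32. Targets were thus found on both sides, and LTBP2 belongs to this list and to that of the other components. The tropomyosin TPM1 was at 503, 564 and 574 CPM in siRBM47 libraries, against 122, 130 and 298 CPM in control libraries (1.58, SE 0.33, adjusted p = 0.0819, edgeR). The AP-1 factor JUNB was at 71.6, 100.2 and 97.3 CPM, against 153, 135 and 203 CPM in control libraries (-0.87, SE 0.22, adjusted p = 0.117, edgeR). The cell cycle inhibitor CDKN1A was at 244, 333 and 354 CPM, against 410.4, 496 and 926 CPM in control libraries (-0.98, SE 0.31, adjusted p = 0.174, edgeR). Genes on the opposite strand overlap 11.4% of the exon length of TAGLN, 21.4% of TPM1 and 14.2% of JUNB. CDKN2B, another target, had 0 counts in every library, which allows up to 0.203 CPM in the shallowest.

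Control replicate 3 was more than 2-fold above the other controls for 11 of the 25 targets, against 9.95% of all genes. Without it, 13 targets were called higher, among them ACTA2, TAGLN, TPM1 and COL1A1, and also CCN2, whose log2 fold change was negative with all libraries, and 7 lower, among them JUNB, CDKN1A and IL11 (edgeR). In that fit 10.1% of all genes were called higher and 11.3% lower. Without any 1 other library, 0 targets passed by edgeR, and 5 to 9 of the 25 were at an unadjusted p under 0.05, against 9.67% to 12.5% of all genes.

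**Figure D5:**
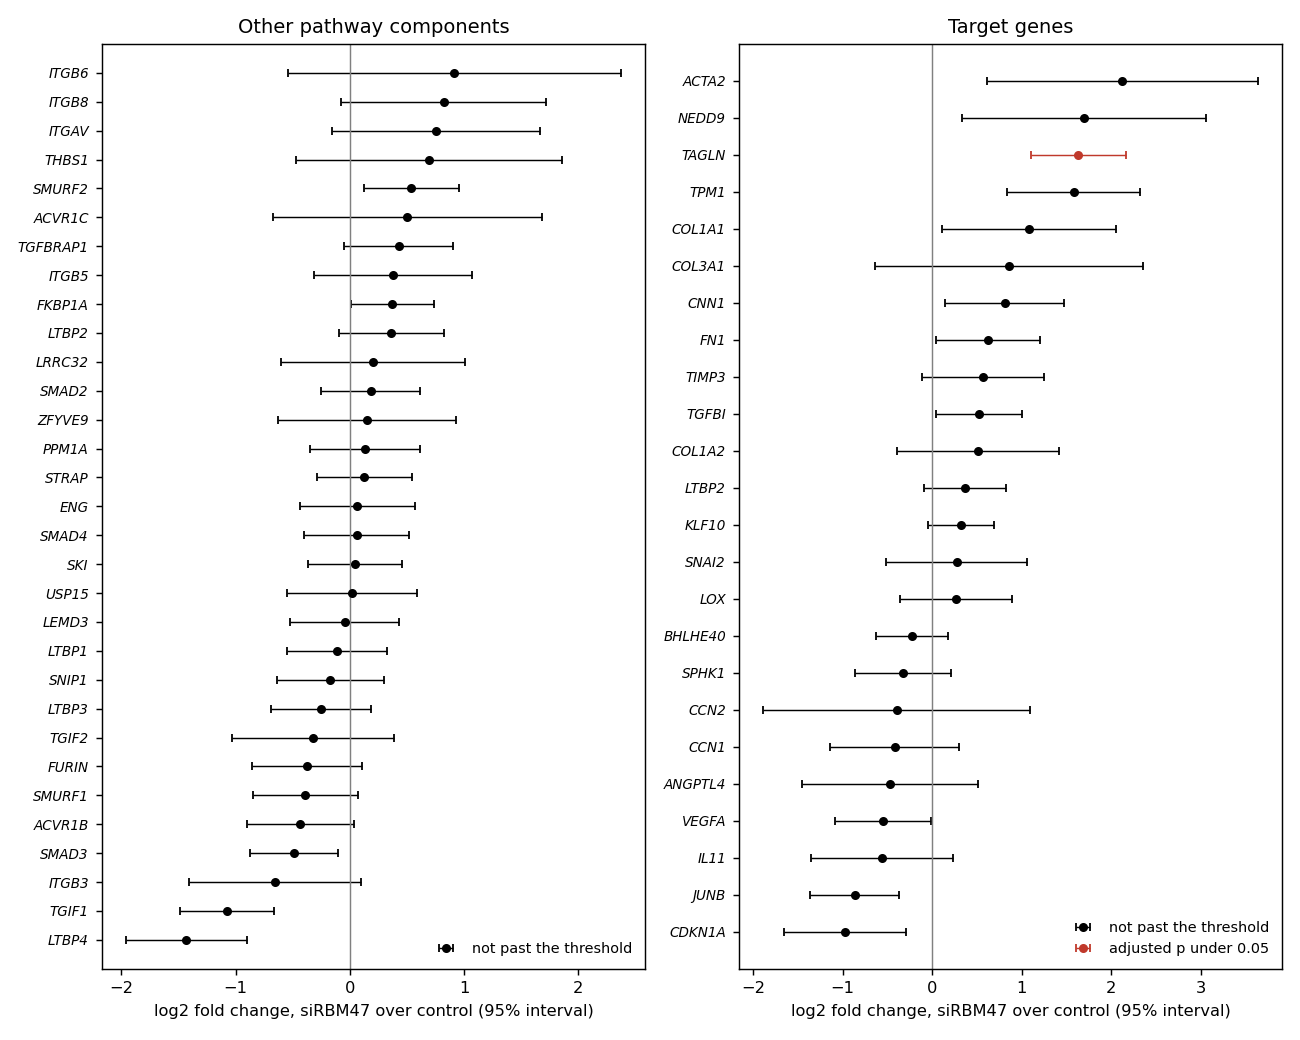
Log2 fold change, siRBM47 over control, with its 95% interval by edgeR for all 6 libraries, for the 31 tested other components (left) and 24 of the 25 tested target genes (right), ordered by size. TAGLN (red) is past the threshold, and LTBP4 and TGIF1 lie lowest among the components.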

How the data were processed

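RNA sequencing libraries of U87 cells (3 siRBM47, 3 control, grouped by title) were prepared, per the labels' protocols, with the NEBNext Ultra RNA kit, which does not mark strand. The submitters' processing notes name HISAT2 2.0.5, featureCounts 1.5.0-p3 and the build hg38, but their annotation or strand setting is not given in the sources used here. Each deposited file pairs raw counts with FPKM made by the authors, per the file headers. Counts were used for tests and FPKM for levels between genes.

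Identifiers were given symbols from a reference table, positions and exon overlaps from GENCODE release 29 (GRCh38), and promoters from RefSeq. Libraries of a group differed beyond sampling noise (chi-square per degree of freedom 10.7 to 145), so none was counted as a repeat. No label says that the replicates were separate cultures, and p-values thus reflect only how these libraries spread, which may be technical. Genes were kept by filterByExpr (minimum count 10; 14578 genes) and tested across all genes with edgeR 4.0.16 (quasi-likelihood, TMM, no block; R 4.3.3); p-values were adjusted by Benjamini-Hochberg and called at 0.05. The SE was derived from F, as |log2 fold change| divided by its square root. CPM use TMM-scaled library sizes. For genes without counts the upper limit is 3 counts (counting error only). Alternatives were RLE and upper-quartile factors, DESeq2 1.42.0, limma-voom 3.58.1, a replicate block, leave-one-out fits, no filter, and filtering at a count of 50. On simulated data with the 14578 genes of this comparison, edgeR recovered 34 of 100 genes changed 2-fold and 81 of 100 changed 4-fold, with 11 false calls among 126. DESeq2 recovered 48 and 85, with 28 false calls among 161, a larger share than for edgeR. For limma-voom the values were 31 and 82, with 8 false calls among 121. Simulated libraries of a group shared 1 expected level per gene, so none stood apart as control replicate 3 did. These rates may therefore not hold for the data.

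Of the target genes, 1 is counted but not reported singly here. The members and lists were chosen with earlier results of these data known. All members were named, then the 4 genes of each other list with the smallest p and any past the threshold. The 3 profiles most like PMEPA1 and TGFBR2 each were also named. Genes named outside this rule, such as ACTA2, COL1A1, CCN2, IL11, LTBP2 and CDKN2B, are examples and not a full account of their list.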

Additional observations from a re-analysis of the deposited data

How the results depend on the processing

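Scaling by RLE or upper-quartile factors changed no call and no direction of the members, the lists or RBM47. DESeq2 and the fit without a filter each called 2 members higher, adding TGFBR2 at log2 fold changes of 1.24 and 1.25. The other components called were 2 by DESeq2, 1 by limma-voom, 3 without a filter and 1 at a minimum count of 50, against 0. The targets called were 4 by DESeq2 and 8 without a filter, against 1. The sign of TGFB3 turned to 0.55 by limma-voom and 0.58 with the replicate block, and that of RBM47 to 0.10 and 0.12. The same-numbered libraries correlated in their deviations from the group means at -0.04, 0.13 and 0.12, and those with unlike numbers at -0.21 to 0.20. Pairing by number was thus not detected, though 3 libraries per group cannot decide it. With the replicate block 39 genes were called over all genes, 2 targets (TAGLN and TPM1) and no other member than PMEPA1; no other call of a member changed. Over all genes the calls were 32, against 644 by DESeq2 and 804 without a filter.

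Leaving out 1 library in turn, 0 to 4 members were called higher, 0 lower, 0 to 8 other components and 0 to 20 targets. The log2 fold change ranged from 1.29 to 1.498 for PMEPA1, from 1.03 to 1.71 for TGFBR2, from 0.079 to 1.57 for TGFB2, from -0.47 to 1.71 for TGFB3 and from -0.39 to 0.76 for RBM47. TGFB3 was at 0.28 without siRBM47 replicate 1 and at 1.71 without control replicate 3, and RBM47 at 0.04 without siRBM47 replicate 3 and at 0.76 without control replicate 3. Calls over all genes numbered 19, 12 and 3117 without control replicates 1, 2 and 3 and 0 without any siRBM47 library, where 1445 to 1816 genes had an unadjusted p under 0.05. Why the values move was not tested. TGFBR3 rests on 37 to 83 counts per library.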
